A study of Mus musculus with 6 samples.

Results

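H3K27ac was examined at the genes of 8 subunits of the BAF (mammalian SWI/SNF) chromatin remodeller, Smarca4, Smarcb1, Smarcc1, Smarcd1, Smarce1, Arid1a, Dpf2 and Brd9, in mouse embryonic stem cells (ESCs) before and after degradation of OCT4. The genes were chosen by name, with earlier results of these data known. They were taken because BRG1, the protein made from Smarca4, is a known partner of OCT4. The measured members are the H3K27ac peaks that overlap each gene body of GENCODE vM21 on GRCm38 or the 5 kb on either side. This rule took 19 of the 31131 peaks of the study, and 8 of the 12913 protein-coding genes with such a peak. All 19 peaks had an RPKM (reads divided by peak length and by library size) of at least 0.5 in either condition and entered the test, as did 26457 peaks in all.

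The libraries come from O4AID ESCs of strain 129SV. Their genotype was Oct4-/- with a TetOFF Oct4 transgene, a CAG Oct4AID transgene and a CAG Tir1 transgene. TetOFF Oct4 was kept silent with doxycycline in both groups, so that the OCT4 of these cells carried the auxin-inducible degron (AID), through which the TIR1 F-box protein marks it for destruction when auxin is present. Oct4AID and Tir1 were driven by the ubiquitous CAG promoter, so the level of OCT4 was set by a transgene and not by the endogenous gene. Cells were cultured in N2B27 with PD03, Chiron and LIF. The 3 uninduced libraries came from untreated cells, and the 3 IAA libraries from cells given 500 μM indole-3-acetic acid (IAA, an auxin) for 1.5 h. Each library is a separate immunoprecipitation of the same cell line, and the sources used here do not say that the chromatin came from separate cultures, so p-values measure the spread between these libraries, which may be technical. No library of IAA-treated cells without the degron was analysed here, so IAA itself and the loss of OCT4 cannot be told apart.

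Libraries held 31634480 to 39547452 reads, recovered from the step of 1 read in the RPKM values. The share of reads in peaks was 6.63% to 7.12% in uninduced and 4.05% to 5.15% in IAA libraries, so the groups did not overlap. The authors called peaks on pooled uninduced reads only, so regions that gain the mark after IAA may be missing, which favours falls. RPKM divides by all reads, and a lower share in peaks lowers most peaks together. For that reason each change is given as deposited and also relative to the median peak or gene of its library. Whether fewer cells carried the mark or each cell carried less of it cannot be told apart in these bulk samples. All 8 markers of naive ESCs (Nanog, Sox2, Esrrb, Klf4, Tfcp2l1, Zfp42, Tbx3 and Prdm14) had a peak within 5 kb. Of 8 markers of trophoblast and differentiated cells, Gata6 and Pax6 had one and Cdx2, Eomes, Sox17, T, Gata4 and Hand1 had none.

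BAF complexes use the energy of ATP to slide or evict nucleosomes and so keep enhancers and promoters open. The ATPase is SMARCA4 (BRG1) or its paralog SMARCA2 (BRM), and around it sit core subunits, not all of them in every form, and subunits that define a form. ARID1A and DPF2 belong to canonical BAF, and BRD9 belongs to the non-canonical form. ESCs hold a form known as esBAF, which is built on BRG1 and SMARCC1 and which is needed for self-renewal. H3K27ac is a mark of nucleosomes flanking active promoters and of active enhancers. The values below therefore describe the regulatory regions of the subunit genes, not the amount or the binding of the complex.

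The peaks at the starts of Smarca4 and Smarcc1 come in pairs, and the bases between the peaks are shown here because they lie at the centre of each pair. The stretch just upstream of the Arid1a start is shown because it lies in an H3K27ac peak within 1 kb of an OCT4 peak. The lines below give the bases before the annotated starts on the gene's own strand, from RefSeq on GRCm38, for Smarca4 at chr9:21615919-21616168, for Smarcc1 at chr9:110131774-110131979 and for Arid1a at chr4:133756770-133757019 (minus strand). Capitals mark matches, on either strand, to the GC box (GGGCGG), the ETS core (CCGGAA) and the NRF1 core (GCATGCGC).
Smarca4: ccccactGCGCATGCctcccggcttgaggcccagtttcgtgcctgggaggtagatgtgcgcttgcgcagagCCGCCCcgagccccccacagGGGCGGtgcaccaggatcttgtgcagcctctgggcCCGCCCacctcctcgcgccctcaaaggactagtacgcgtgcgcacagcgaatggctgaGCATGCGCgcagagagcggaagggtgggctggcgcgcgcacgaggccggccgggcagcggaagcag
Smarcc1: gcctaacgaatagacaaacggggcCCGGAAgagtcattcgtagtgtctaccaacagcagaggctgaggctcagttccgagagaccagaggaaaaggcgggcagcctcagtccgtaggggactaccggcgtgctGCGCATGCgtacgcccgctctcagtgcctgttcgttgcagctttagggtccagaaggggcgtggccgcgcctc
Arid1a: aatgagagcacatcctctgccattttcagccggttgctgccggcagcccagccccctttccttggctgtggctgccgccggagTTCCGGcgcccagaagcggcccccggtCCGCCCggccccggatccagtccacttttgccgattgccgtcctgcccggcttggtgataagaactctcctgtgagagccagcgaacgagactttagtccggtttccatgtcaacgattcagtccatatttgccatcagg

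Over the 250 bases before the RefSeq start, Smarca4 held 3 GC boxes and 2 NRF1 cores. Smarcc1 held 1 GC box, 2 ETS cores and 1 NRF1 core, and the upstream start of Arid1a held 1 GC box and 1 ETS core. The second RefSeq start of Arid1a held 7 GC boxes and 0 ETS cores, with 0 of its bases in a peak. Smarcb1, Brd9, Smarcd1 and Dpf2 held 2, 4, 1 and 0 GC boxes, 0, 1, 1 and 0 ETS cores and 0 NRF1 cores. Among 32851 promoters of the same length, 32.7% held a GC box, 12.0% an ETS core and 2.26% an NRF1 core. The CCAAT box (CCAAT, in 33.8% of promoters) and the YY1 core (ATGGCGG, in 2.21%) were also searched and were not found in the 3 printed stretches. Dpf2 held 1 CCAAT box. Of the 250 bases of Smarca4, 0 lay in an H3K27ac peak, against 28 of those of Smarcc1 and all 250 of those of the upstream Arid1a start. The first annotated start of Smarca4 and that of Smarcc1, at positions 21616169 and 110131980 of chromosome 9, lie between the peaks of the pair, and a second start of each, at 21616264 and 110132037, lies inside the downstream peak. These motifs were chosen after the data were seen, and a match describes the letters only.

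**Figure D1:**
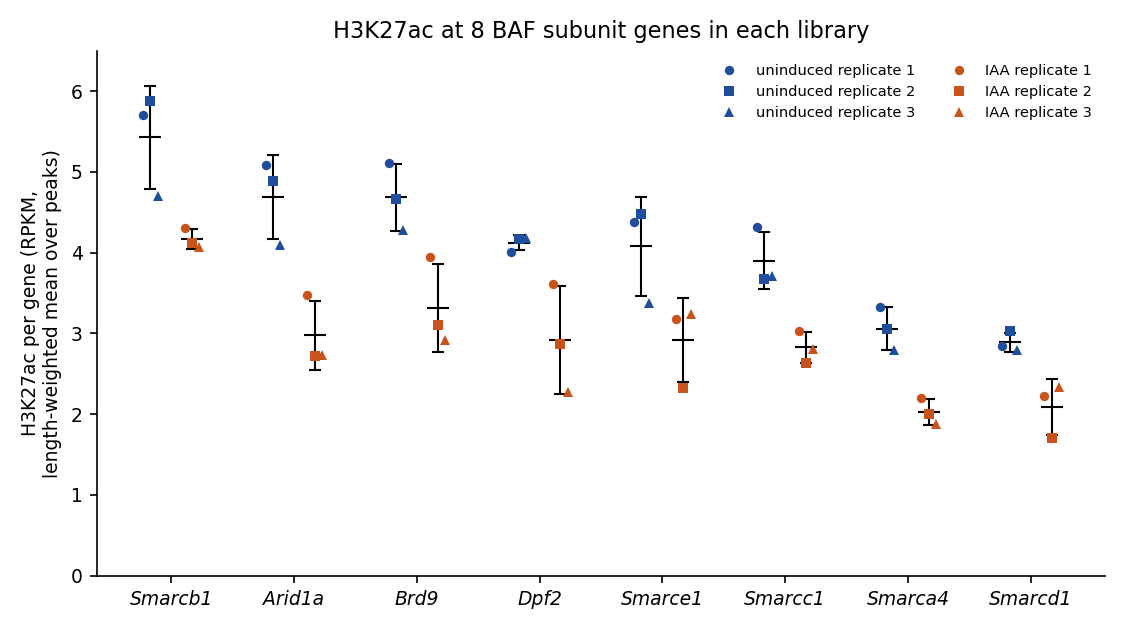
H3K27ac per gene (y axis, RPKM, the mean over the gene's peaks weighted by length) for each BAF subunit gene (x axis, ordered by uninduced level) in 3 uninduced and 3 IAA libraries, with horizontal marks at the mean and bars of 1 SD. At each of the 8 genes the 3 IAA libraries lie below the 3 uninduced libraries.

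H3K27ac was lower after IAA at all 8 genes, by 23.2% at Smarcb1 to 36.6% at Arid1a of the mean RPKM. Per gene, as the mean RPKM of its peaks weighted by length, the 8 changes ran from -0.64 to -0.37 on the log2(RPKM + 0.1) scale, with a median of -0.48. All 8 passed the test across 12294 coding genes (limma, Benjamini-Hochberg adjusted p from 0.000982 to 0.0223). Of all coding genes tested, 84.5% were called lower, with a median change of -0.52, so 8 of 8 is near that background. The IAA libraries all lay below the uninduced libraries at 8 of 8 genes, as at 81.3% of coding genes. Relative to the median gene of each library, 0 of the 8 genes were called by limma in either direction (0 also at an unadjusted p under 0.05), where 0.643% of coding genes were called lower and 0.106% higher. Leaving out uninduced replicate 1, uninduced replicate 2 or IAA replicate 2 left 5 of 8 called each time, where 60.9%, 64.0% and 72.9% of coding genes were called lower.

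Smarca4 encodes the ATPase BRG1, the motor of the complex. Its gene value was 3.33, 3.06 and 2.80 RPKM in uninduced replicates 1, 2 and 3 and 2.20, 2.01 and 1.88 RPKM in IAA replicates 1, 2 and 3. The lowest uninduced library stood above the highest IAA library. The mean fell from 3.06 ± 0.264 to 2.03 ± 0.160 RPKM (SD, n = 3 libraries each), a log2 change of -0.57 ± 0.154 (SE; limma adjusted p = 0.00231). The change relative to the median gene was -0.04 (95% interval -0.23 to 0.15). In uninduced cells the level of Smarca4 exceeded that of 58.0% of coding genes, and 36.1% of genes had a larger fall.

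Smarca4 has 4 peaks. The pair at its start lies on either side of the printed stretch. The peak upstream, at chr9:21615022-21615907 and outside the gene, fell from 3.61 ± 0.540 to 2.21 ± 0.256 RPKM (SD, n = 3; limma adjusted p = 0.00413). The peak downstream, at chr9:21616251-21616903 in the 5' UTR, is the higher of the pair. It was at 4.54, 4.51 and 3.96 RPKM in the uninduced libraries and at 3.55, 2.47 and 3.41 RPKM after IAA, so IAA replicate 2 is the lowest and the groups do not overlap (log2 change -0.47 ± 0.168, SE; limma adjusted p = 0.0223). Within a library the upstream minus downstream difference was -0.27 ± 0.158 (log2, SD, n = 3) in uninduced and -0.47 ± 0.434 in IAA libraries, and these ranges overlap. The other peaks of the gene are a coding-exon peak at chr9:21669776-21670758 (log2 change -0.55, adjusted p = 0.0280) and a peak past the gene's end at chr9:21706804-21707129 (log2 change -0.79, adjusted p = 0.00962). That last peak is narrow, and its libraries held 9 to 28 reads. The calls of the 5' UTR peak and the coding-exon peak were lost without uninduced replicate 1 (adjusted p = 0.0857 and 0.0822) or uninduced replicate 2 (0.0777 and 0.0778). That of the 5' UTR peak was also lost without IAA replicate 2 (-0.31, adjusted p = 0.136), and that of the coding-exon peak without IAA replicate 3 (-0.35, adjusted p = 0.0895).

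Among the core subunits, SMARCB1 anchors the complex to the nucleosome's acidic patch, SMARCC1 is a scaffold on which it assembles, and SMARCD1 and SMARCE1 complete the core. Smarcb1 had the highest gene level of the 8 and the smallest change. Its single peak, at chr10:75921166-75922167 across the start, was at 5.71, 5.87 and 4.70 RPKM in the uninduced libraries and 4.305, 4.13 and 4.06 RPKM in the IAA libraries. Uninduced replicate 3 was closest to the IAA libraries, without overlap. The log2 change per gene was -0.37 ± 0.147 (SE; limma adjusted p = 0.0223), and 85.2% of coding genes had a larger fall. Smarcb1 was at 0.16 relative to the median gene (95% interval -0.03 to 0.35). The call of Smarcb1 was lost without uninduced replicate 1 (adjusted p = 0.111), without uninduced replicate 2 (0.142) or without IAA replicate 2 (0.0682).

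Smarcc1 had a gene value of 4.31, 3.68 and 3.72 RPKM in uninduced libraries and 3.03, 2.64 and 2.81 RPKM after IAA, without overlap. The change was -0.45 ± 0.148 (log2, SE; limma adjusted p = 0.00754). Without uninduced replicate 1 it was -0.38 (adjusted p = 0.0742). The peaks at the Smarcc1 start differ in their values by library. The one upstream, at chr9:110130834-110131535, was at 2.78, 2.39 and 2.87 RPKM before and 1.97, 1.54 and 0.988 RPKM after IAA, the largest fall of the start peaks of the 8 genes (log2 change -0.84 ± 0.216, SE; limma adjusted p = 0.00449). The one downstream, at chr9:110131995-110132885, was at 4.38, 3.98 and 3.86 RPKM before and 3.00, 2.34 and 4.38 RPKM after IAA. Here IAA replicate 3 reached the highest uninduced library, and the change of -0.37 did not pass the test (limma adjusted p = 0.0880). Without IAA replicate 3 it was -0.60 (adjusted p = 0.00656), and without IAA replicate 2 it was -0.16 (adjusted p = 0.451). In IAA replicate 3 the upstream peak was the lowest of the 6 libraries and the downstream peak the highest.

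The remaining Smarcc1 peaks lie far from its main starts. The peak at chr9:110117169-110118417 lies within 1 kb of a start of the neighbouring gene Dhx30, an RNA helicase gene. It fell from 5.80 ± 0.602 to 4.23 ± 0.562 RPKM (SD, n = 3, limma adjusted p = 0.0194, and 0.113 and 0.0519 without uninduced replicate 1 and 2). It overlaps the first bases of the longest Smarcc1 annotation, so its reads cannot be assigned to one gene. The intronic peak at chr9:110171826-110172393 had 12 to 30 reads per library and a change of -0.31 that did not pass the test (limma adjusted p = 0.277). It was -0.08 without uninduced replicate 1, -0.53 without uninduced replicate 2 and -0.21 without IAA replicate 1.

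Smarcd1 had the lowest gene level of the 8. It was at 2.84, 3.03 and 2.80 RPKM in uninduced libraries and at 2.23, 1.70 and 2.34 RPKM after IAA, and the groups do not overlap. The gene value changed by -0.46 ± 0.158 (log2, SE; limma adjusted p = 0.00935). Without uninduced replicate 2 its adjusted p was 0.0521, and without IAA replicate 2 it was 0.104. The gene value rests on unlike peaks. The start peak, at chr15:99701981-99702550, was at 4.22, 3.94 and 3.31 RPKM before IAA and at 2.99, 2.14 and 5.17 RPKM after it. IAA replicate 3 was the highest of the 6 libraries there, with 102 reads against 44 to 95 in the others. The change of -0.24 at the start peak was the smallest of the 19 peaks and did not pass the test (limma adjusted p = 0.330), and it turned on single libraries. Without IAA replicate 3 it was -0.57 (adjusted p = 0.0150), and without IAA replicate 2 it was 0.05, in the other direction (adjusted p = 0.845).

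The peak within 1 kb of an OCT4 peak in Smarcd1, at chr15:99704302-99705191 over coding exons, was at 2.90, 3.38 and 3.40 RPKM in the uninduced libraries and at 2.28, 1.96 and 1.33 RPKM in the IAA libraries. All IAA libraries were below all uninduced ones, and IAA replicate 3 was here the lowest of the 6. The log2 change was -0.79 ± 0.193 (SE; limma adjusted p = 0.00346), and 16.3% of all peaks tested had a larger fall. This peak also lies within 1 kb of a start of the gene Gm17349 and of the noncoding gene Gm34939. Smarcd1 thus cannot be said to own it. The third peak, at chr15:99707824-99708340, was low, at 1.28 ± 0.114 RPKM before and 1.00 ± 0.281 RPKM after IAA (SD, n = 3), and its change of -0.35 did not pass the test (limma adjusted p = 0.178). It was -0.18 without IAA replicate 2 and -0.54 without IAA replicate 1. Without the peak at the Gm17349 start the Smarcd1 gene value changed by -0.25 (adjusted p = 0.251).

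Smarce1 encodes an HMG-box subunit of the core. Its single peak, at chr11:99229737-99231275 over the start, was at 4.37, 4.48 and 3.38 RPKM before and at 3.18, 2.32 and 3.25 RPKM after IAA. Uninduced replicate 3 and IAA replicate 3 were 0.13 RPKM apart, so the groups only just stay separate. The log2 change per gene was -0.47 ± 0.157 (SE; limma adjusted p = 0.00791), and the call was lost without uninduced replicate 1 (adjusted p = 0.0520), uninduced replicate 2 (0.0617) or IAA replicate 2 (0.101).

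**Figure D2:**
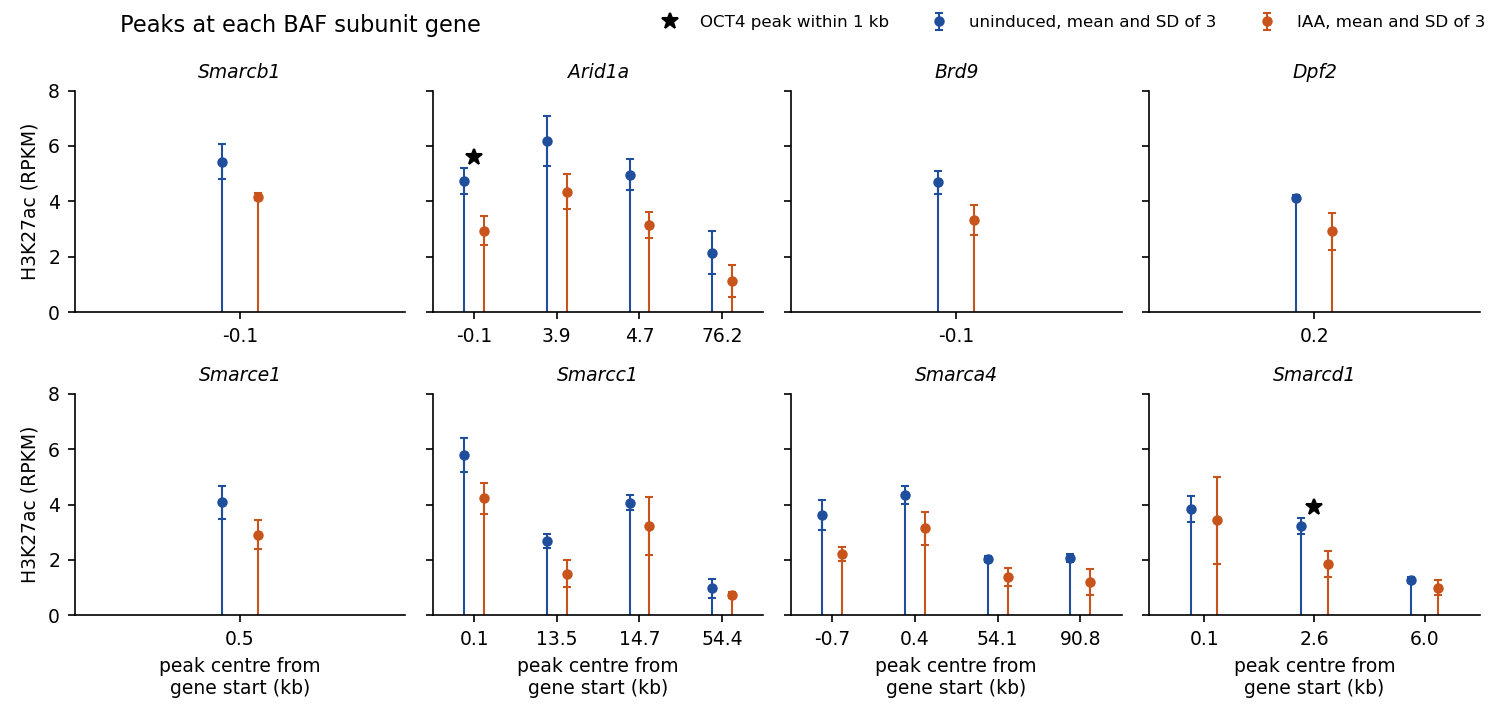
H3K27ac (y axis, RPKM, mean with bars of 1 SD over 3 libraries) of each of the 19 peaks, placed in order along its gene. The x axis labels give the distance of the peak centre from the 5' end of the annotated gene in kb (evenly spaced, not to scale). At Smarcc1 this end lies upstream of the starts named in the text. Stars mark the 2 peaks with an OCT4 peak at most 1 kb away, at the Arid1a start and 2.6 kb into Smarcd1.

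ARID1A and DPF2 define the canonical complex. ARID1A holds the core and the ATPase module together, and DPF2 carries PHD fingers that read modified histone H3. Arid1a had a gene value of 5.09, 4.88 and 4.09 RPKM in uninduced libraries and 3.47, 2.72 and 2.73 RPKM after IAA. The highest IAA library was below the lowest uninduced library. The change of -0.64 ± 0.152 (log2, SE; limma adjusted p = 0.000982) was the largest of the 8, yet 20.2% of coding genes had a larger fall. It was -0.11 relative to the median gene (95% interval -0.30 to 0.07).

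Arid1a has 4 peaks. The peak at its upstream start, at chr4:133756160-133757650, is the only start peak of the 8 genes within 1 kb of an OCT4 peak, and it holds the stretch printed above. It was at 5.16, 4.77 and 4.23 RPKM in uninduced and at 3.52, 2.75 and 2.52 RPKM in IAA libraries, without overlap (log2 change -0.68 ± 0.166, SE; limma adjusted p = 0.00354). The highest of all 19 peaks, at chr4:133752702-133753107 by the second Arid1a start, was at 6.49, 6.87 and 5.17 RPKM before and 4.63, 3.63 and 4.77 RPKM after IAA (log2 change -0.50, adjusted p = 0.0148, and 0.0677, 0.0829 and 0.0812 without uninduced replicate 1, uninduced replicate 2 and IAA replicate 2). Next to it an intronic peak at chr4:133751755-133752291 fell from 4.96 ± 0.554 to 3.14 ± 0.461 RPKM (SD, n = 3; adjusted p = 0.00402). Neither of these peaks has an OCT4 peak within 1 kb. The marked peak minus the mean of the other 3 peaks of Arid1a was 0.24 ± 0.171 (log2, SD, n = 3) before and 0.26 ± 0.078 after IAA.

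The peak with the largest change of the 19 lies 76.2 kb into Arid1a, in a coding exon near the 3' end, at chr4:133680367-133680680. It was at 2.10, 2.93 and 1.40 RPKM before and 1.50, 1.42 and 0.461 RPKM after IAA, so the groups overlap. Its log2 change was -0.96 ± 0.324 (SE; limma adjusted p = 0.0169). IAA replicate 3 held 5 reads there and the other libraries 16 to 29. Without IAA replicate 3 the change was -0.47 (adjusted p = 0.121), without uninduced replicate 2 it was -0.71 (adjusted p = 0.0987), and without uninduced replicate 1 it was -0.95 (adjusted p = 0.0509).

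Dpf2 has a single peak, at chr19:5912037-5913524 over its start, which also lies within 1 kb of a start of the noncoding gene Gm42067. It was at 4.01, 4.17 and 4.19 RPKM in the uninduced libraries, the tightest of the 8 genes, and at 3.61, 2.87 and 2.27 RPKM after IAA. IAA replicate 1 was nearest the uninduced libraries and did not reach them. The log2 change per gene was -0.51 ± 0.156 (SE; limma adjusted p = 0.00493). As a single peak it had an adjusted p of 0.0173, and of 0.0507 and 0.0531 without uninduced replicate 1 and 2.

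BRD9 is a bromodomain protein, a reader of acetylated lysine, and the defining subunit of the non-canonical complex. Its single peak, at chr13:73937040-73938327, was at 5.11, 4.67 and 4.27 RPKM in the uninduced libraries and 3.94, 3.10 and 2.91 RPKM in the IAA libraries, without overlap. The log2 change per gene was -0.49 ± 0.152 (SE; limma adjusted p = 0.00506). The peak also lies within 1 kb of a start of Trip13, a gene of meiotic and spindle checkpoint control. Its reads thus cannot be assigned to one gene. As a single peak it had an adjusted p of 0.0151, and of 0.0811 and 0.0503 without uninduced replicate 1 and 2.

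In order of uninduced level the genes were Smarcb1 at 5.43, Arid1a at 4.69, Brd9 at 4.68, Dpf2 at 4.12, Smarce1 at 4.08, Smarcc1 at 3.90, Smarca4 at 3.06 and Smarcd1 at 2.89 RPKM. Between neighbours in this order, the uninduced ranges separated between Brd9 and Dpf2 and between Smarcc1 and Smarca4, and overlapped elsewhere. Smarcb1 exceeded Arid1a within each of the 6 libraries although their ranges over libraries overlap. Arid1a was above Brd9 in 1 of 3 uninduced libraries and in 0 of 3 IAA libraries. These levels are per length, and each of the 8 lay above that of 53.1% to 93.4% of coding genes. Each is a mean over all peaks of the gene's window. Smarcb1, Brd9, Dpf2 and Smarce1 have a start peak only, and the other genes hold further peaks. The order thus depends in part on which peaks a window holds. The highest start peak of Arid1a, at a mean of 6.18 RPKM in uninduced libraries, stood above that of Smarcb1.

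**Figure D3:**
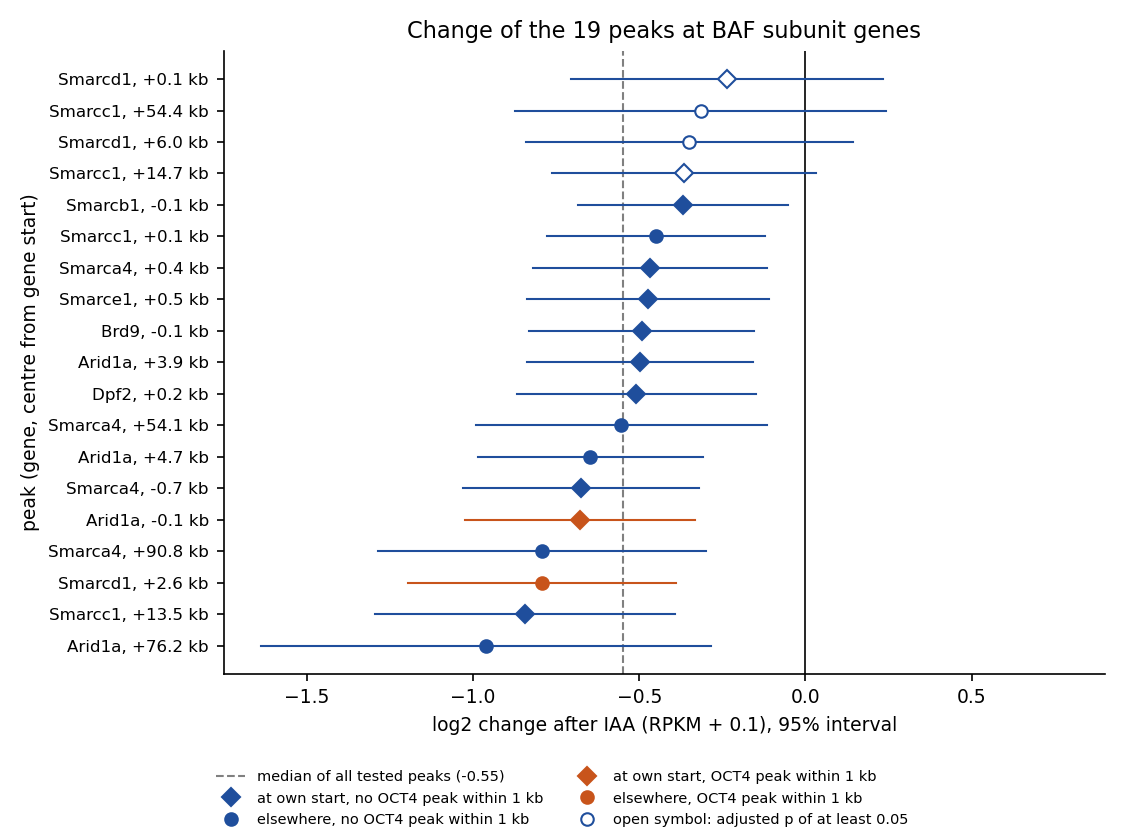
Log2 change after IAA of each of the 19 peaks (x axis, on RPKM + 0.1) with its 95% interval from limma, ordered by change. Labels give the gene and the distance from the 5' end of the annotated gene in kb. The dashed line is the median of all tested peaks, and it falls inside each of the 19 intervals.

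Across the 19 peaks, 15 were called lower and 0 higher (limma, adjusted p under 0.05), where 68.2% of all tested peaks were called lower. Because peaks were called on uninduced reads, the 0 higher cannot speak for regions marked only after IAA. The IAA libraries all lay below the uninduced libraries at 14 of the 19, which held for 71.2% of all tested peaks. The 4 peaks that did not pass were the start peaks of Smarcd1 and Smarcc1 at which IAA replicate 3 was high, and the low peaks inside Smarcc1 and Smarcd1. The median change of the 19 was -0.50, against -0.55 over all tested peaks. Relative to the median peak 0 of 19 were called in either direction by limma (0 also at an unadjusted p under 0.05), where 1.97% of all tested peaks were called lower and 0.544% higher. Without uninduced replicate 1, 6 of 19 were called lower (39.2% of all peaks), and without uninduced replicate 2, 6 of 19 (46.5%). Without IAA replicate 2, 11 of 19 were called (57.8% of all peaks), and without IAA replicate 3, 15 of 19 (54.4%), with the start peaks of Smarcc1 and Smarcd1 gained and the peaks in coding exons of Smarca4 and of Arid1a near its 3' end lost.

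The 11 peaks within 1 kb of a start of their own gene had a median uninduced level of 4.12 RPKM, and the other 8 one of 2.11 RPKM. Their median log2 changes were -0.49 and -0.60, against -0.52 for all tested peaks at coding starts and -0.57 for all others. The classes are not quite alike. Over all peaks any coding start counts, so the member peaks near the Dhx30 and Gm17349 starts are start peaks only there. Within libraries the start minus other difference of the member peaks ran from 0.80 to 0.82 (log2) in uninduced libraries and was 0.77, 0.72 and 1.23 in IAA replicates 1, 2 and 3. IAA replicate 3 alone stood above the uninduced libraries, and the change of this difference, 0.10, was -0.07 without it.

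Of the 19 peaks, 2 (10.5%) lie within 1 kb of an OCT4 peak of published ChIP-seq data, where 17.6% of all tested peaks do. Those 2, in Arid1a and Smarcd1, had log2 changes of -0.68 and -0.79, and the 17 others a median of -0.49. Over all tested peaks the medians were -0.71 with an OCT4 peak within 1 kb and -0.52 without. The marked minus unmarked difference of the member peaks was 0.25 ± 0.108 (log2, SD, n = 3) in uninduced and 0.04 ± 0.191 in IAA libraries, which overlap, and 2 marked peaks are too few for a comparison. The change of this difference was -0.21, and -0.10 without IAA replicate 3. From the starts of the other 6 genes the nearest marked peak was 15380 bp (Smarcb1) to 275557 bp (Smarce1) away, where the median over coding genes with a peak was 117128 bp.

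The octamer words bound by OCT4 were searched on both strands of each of the 19 peaks. ATGCAAAT and ATGCTAAT had 0 matches, also in the 2 marked peaks. They occur in 3.01% and 2.02% of all tested peaks, and in 6.44% and 4.91% of marked ones. The core of the joint SOX and octamer element (TTGTNATGC, in 1.62% of all tested peaks) had 1 match, upstream of the Smarce1 start, in a peak with no OCT4 peak within 1 kb. It is shown as the only such word in the 19 peaks, at chr11:99231187-99231255 of GRCm38 on the plus strand, with the match in capitals.
Smarce1: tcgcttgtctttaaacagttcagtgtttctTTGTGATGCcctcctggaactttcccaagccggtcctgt

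**Figure D4:**
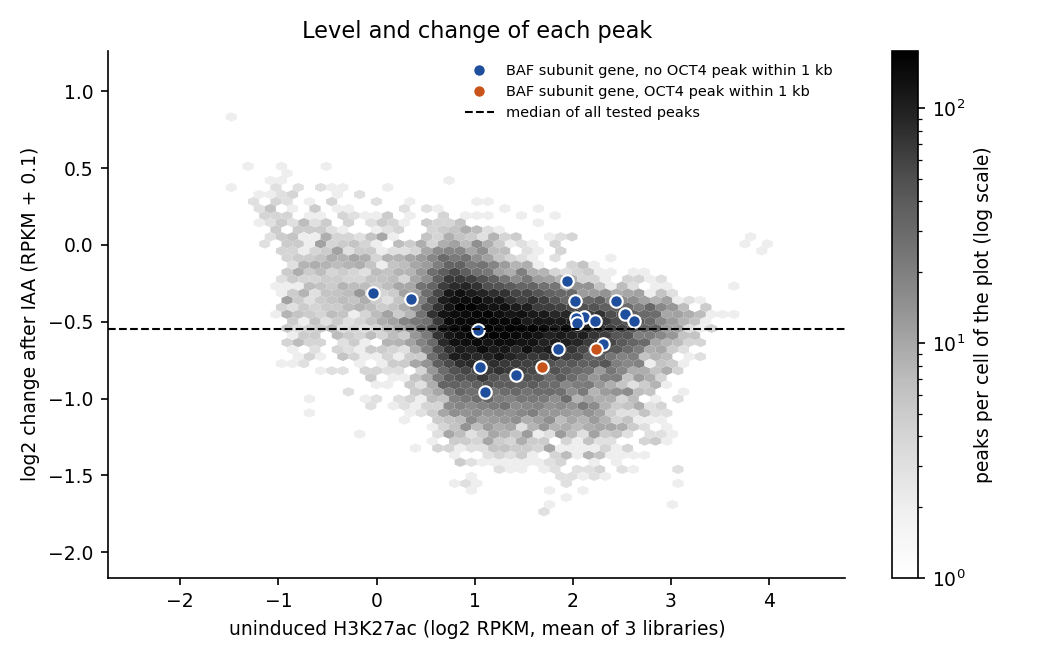
Log2 change after IAA (y axis, on RPKM + 0.1) against uninduced H3K27ac (x axis, log2 RPKM, the mean of 3 libraries) for the 26457 tested peaks as grey density, with the 19 member peaks as points, orange where an OCT4 peak lies within 1 kb. The member peaks lie within the cloud of all peaks, on both sides of its median of -0.55.

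A list of 23 further BAF genes covers the paralogs and the remaining subunits. Of these, Smarca2, Actl6b, Dpf1, Bcl11a and Bcl11b had no peak within 5 kb. SMARCA2 is the ATPase that can replace BRG1, and ACTL6B and DPF1 belong to the neuronal complex. The other 18 were tested. Of them 15 were called lower and 0 higher, with a median change of -0.48, against the 84.5% and -0.52 of all coding genes. Smarcd3, Bcl7c and Phf10 did not pass the test. Without uninduced replicate 1, 9 of the 18 were called lower (60.9% of coding genes). By group, 6 of 8 tested core and ATPase-associated genes were called lower, 4 of 4 of canonical BAF, 3 of 4 of PBAF (the form with polybromo) and 2 of 2 of non-canonical BAF. Relative to the median gene 0 of the 18 were called by limma (1 at an unadjusted p under 0.05, Dpf3).

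Dpf3, which encodes the DPF2 paralog of heart and muscle complexes, had the lowest change of the list. It was at 2.97, 3.51 and 2.95 RPKM in uninduced and 1.70, 1.15 and 1.40 RPKM in IAA libraries, well separated. The log2 change was -1.11 ± 0.166 (SE; limma adjusted p = 6.68e-06), and 0.561% of coding genes had a larger fall. Set against the median gene it was -0.58 and missed the threshold (adjusted p = 0.0805). Its 1 peak, at chr12:83486301-83487580, is within 1 kb of a Dpf3 start and within 1 kb of an OCT4 peak. Dpf2, the paralog among the 8 genes, has no marked peak and changed by -0.51.

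Smarcd3, a paralog of Smarcd1, had the highest change of the list. It was at 1.71, 1.58 and 1.44 RPKM in uninduced and 1.77, 1.20 and 1.11 RPKM in IAA libraries, and the groups overlap. The change of -0.22 ± 0.201 (log2, SE) did not pass the test (limma adjusted p = 0.283). One of its peaks, at chr5:24586761-24587859, lies within 1 kb of a start of the gene Chpf2 and of none of its own. That peak had a log2 change of -0.34 (limma adjusted p = 0.137). The other, at chr5:24612901-24613308 with 6 to 17 reads per library, had a change of 0.50 (adjusted p = 0.157), so the gene value joins peaks of opposite sign.

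A list of 31 subunits of other remodellers (ISWI, CHD and NuRD, and INO80, SRCAP and TIP60) was set beside these. Of 30 tested, 28 were called lower and 0 higher, with a median change of -0.58, and Chd3 and Baz1a did not pass. Smarca1 was under the threshold of 0.5 RPKM. Relative to the median gene 0 of 30 were called by limma (2 at an unadjusted p under 0.05). Chd9, a CHD-family ATPase gene, was the lowest, at 2.89 ± 0.096 RPKM before and 1.56 ± 0.195 RPKM after IAA (SD, n = 3; log2 change -0.85, adjusted p = 0.000137). Baz1a, a subunit gene of the ISWI complex ACF, was the highest, at 2.12 ± 0.426 and 1.65 ± 0.134 RPKM (log2 change -0.33, adjusted p = 0.0765).

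In each of these lists the genes with a marked peak had the lower median change. Among the 8 BAF genes it was -0.55 for Arid1a and Smarcd1 and -0.48 for the other 6. These 2 genes were at -0.64 and -0.46, so Smarcd1 fell less than the median of the 6. Among the further BAF genes it was -0.67 for 5 genes (Dpf3, Ss18, Bicral, Arid1b and Bcl7b) and -0.44 for 13, and among the other remodellers -0.68 for 9 and -0.53 for 21. Over all coding genes tested it was -0.61 for 2165 genes with a marked peak and -0.50 for 10129 without. Genes with a marked peak also had more peaks, with a median of 3 peaks against 1 over all coding genes, and the part of this in the difference was not tested.

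**Figure D5:**
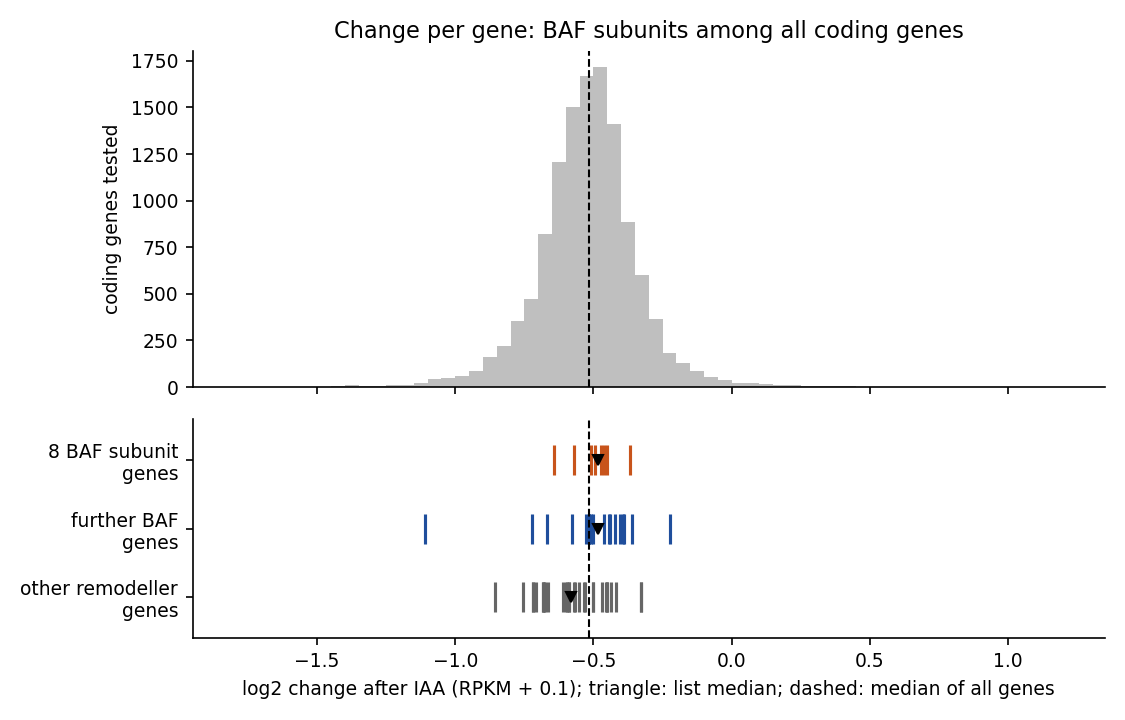
Log2 change per gene after IAA (x axis, on RPKM + 0.1) of all 12294 coding genes tested as a histogram (upper panel, number of genes), and of the 8 BAF subunit genes, the 18 further BAF genes and the 30 other remodeller genes as 1 tick a gene (lower panel), with triangles at the list medians of -0.48, -0.48 and -0.58. The dashed line is the median of all genes, at -0.52, and Dpf3 is the tick far to the left at -1.11.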

How the data were processed

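H3K27ac ChIP-seq libraries of 3 uninduced and 3 IAA samples were analyzed. The authors aligned reads to GRCm38/mm10 with Bowtie2 2.3.4.3, used SAMtools to remove duplicates and MACS2 to call peaks on pooled uninduced reads, and deposited RPKM values made with DiffBind (versions of the latter tools not given in the sources used here). Labels and paper give different antibody numbers. The deposited pooled RPKM columns equal the means of 3 libraries, and 100% of RPKM values are whole multiples of 1 read, within 0.01 read.

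Peaks and genes that reached 0.5 RPKM in at least 1 condition were tested on log2(RPKM + 0.1), which understates changes of low peaks, with limma 3.58.1 in R 4.3.3 (trend and robust, Benjamini-Hochberg, threshold 0.05), and again with each library centred on its median. The fit was tested on simulated data. An exact permutation test of 3 libraries against 3 cannot go below p = 0.1. Peak coordinates are printed as deposited, sequence coordinates count from 1, and promoter sequences are from RefSeq (7 of 8 genes matched). Starts are those of GENCODE basic transcripts.

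Members and lists were chosen with earlier results of these data known. The genes named are the 8 members, with their highest start peak, marked peaks and lowest and highest peak, and from each list those called relative to the median gene or else its lowest and highest. The other member peaks were added to account for all 19, and genes that missed the test or carry the OCT4 mark were named after their values were seen. Alternatives were the pseudocount, threshold, scaling, window, weighting, limma settings, replicate block and leaving out each library.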

Additional observations from a re-analysis of the deposited data

How the results depend on the processing

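Of 400 recomputed values, 353 kept their direction and side of the threshold or stayed within the spread. Scaling changed most of the rest. With each library centred on its median, and likewise with quantile normalization, 0 member peaks, 0 member genes, 0 further BAF genes and 0 other remodeller genes were called lower. The median change was then 0.0558 and 0.0751 for member peaks, 0.0454 and 0.0214 for further BAF genes and -0.0523 and -0.0558 for other remodeller genes. The gene changes turned positive for Smarcb1 (0.16 and 0.14), Smarcc1 (0.0778 and 0.0854), Smarcd1 (0.0657 and 0.0690), Smarce1 (0.0548 and 0.0578), Dpf2 (0.0188 and 0.0276) and Brd9 (0.0351 and 0.0324), none of them past the threshold. Centring and quantile normalization remove a change shared by all peaks by construction.

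Leaving out each library gave 6 to 15 member peaks, 5 to 8 member genes, 9 to 16 further BAF genes and 23 to 29 other remodeller genes called lower, where 39.2% to 74.1% of all peaks and 60.9% to 90.5% of all coding genes were. The median change of member peaks ran from -0.62 to -0.46. Over all peaks the count was lowest without uninduced replicate 1.

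The replicate numbers share no more than a number: deviations of same-numbered libraries correlated at -0.01, -0.09 and -0.06, and no library correlated best with its own number. With the replicate block 16 member peaks, 8 member genes, 16 further BAF genes and 28 other remodeller genes were called lower, against 71.4% of all peaks and 88.8% of all coding genes. Depth limits the peaks of few reads, such as the 5 to 29 reads per library of the last Arid1a peak.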
